A study of Mus musculus with 8 samples.

Results

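The 4 control libraries of a mouse series, of 8 libraries in all, are described here across genes, to show which transcription factors, receptors, channels, adhesion molecules and transmitter genes amygdalar intercalated cells held in embryos staged E16.5 and how far pools of the same genotype differed. They were taken by their titles, which mark them as controls, and each measured the same 32543 genes. Every control pool carried the genotype Tshz1GFP/+, which is 1 GFP allele and 1 allele written as wild type at Tshz1, on an outbred background. No pool without the GFP allele was used, so all levels are those of cells with that allele. Embryos of 1 genotype were pooled, the ventrolateral part of the caudal telencephalon that holds the amygdala was dissociated, and GFP-positive cells were isolated by fluorescence-activated sorting. The number of embryos in a pool is not given in the sources used here, and nothing in them says that the pools were separate litters, so the spread between pools may be technical in part.

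Intercalated cells are small clusters of densely packed GABAergic neurons at the borders of the basolateral amygdala. They receive excitatory input and inhibit neighbouring amygdala nuclei, and they are known for their part in fear extinction. They arise from the lateral ganglionic eminence, the embryonic source of striatal projection neurons and olfactory bulb interneurons, and they carry dopamine and opioid receptors in the adult. Tshz1, Foxp2 and Meis2 are transcription factors known to mark them, and Gad1 and Gad2 encode the enzymes that make GABA.

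Levels are the deposited TPM values, which allow for the length of a gene and sum to the same total in each library. Levels of different genes in 1 pool can therefore be set side by side. Values for single pools are given in the order NX, NY, QT and RM, the prefixes of the titles, whose meaning the labels do not give. A gene is called listed where it reached 1 TPM in every control pool. With 1 group there is nothing to test: means are given with the SD over 4 pools, and for 2 genes the text says whether their ranges over pools overlapped. No p is given for such an order, because 4 pools are too few for an exact paired test to fall under 0.05.

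The libraries held 5785549 to 14535810 expected counts, RM the fewest, and a floor of 3 counts was worth 0.206 to 0.519 CPM. Between 13265 and 14118 genes reached 1 TPM in a pool, and 11871 of 32543 (36.5%) did so in every pool. At 0 in every pool were 12972 of the 32543, the background for such counts in the classes below. Rows named by a sequence accession rather than a gene symbol took 35.2% of all TPM in NX, 48.6% in NY, 46.4% in QT and 62.2% in RM. They number 8381 and are among the 32543 genes, so the shares over all genes include them. The TPM share of these rows lowers every other gene's TPM in a pool without changing the order of genes within it. It does change how pools compare. Without these rows, 100 TPM would be 154 in NX, 194 in NY, 187 in QT and 265 in RM. Correlations across genes of log2(TPM + 1) ran from 0.945 between NX and RM to 0.973 between NY and QT, and genes are not independent replicates. The NX pool stood apart in composition. Summed over their lists, radial glia and progenitor genes were at 244 TPM in NX and at 1169 to 1731 TPM in the other pools, microglial genes at 14.9 against 105 to 217 TPM, and pallial glutamatergic genes at 34.4 against 151 to 353 TPM. Immediate early genes ran the other way, with 637 TPM in NX and 63.2 to 174 TPM elsewhere. For some results that rest on NX, values without it are given as well.

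All 5 marker genes were listed in every pool. This is a weak check of the label, because the cells were sorted by the GFP allele of Tshz1 and the other markers are also active in other GABAergic cells of the region. The progenitor list summed to more than the markers in NY (1731 against 1214 TPM) and RM (1509 against 1455 TPM). Meis2, a TALE homeobox factor on chromosome 2 (115863064 to 116065839, minus strand, GRCm38), was at 1051, 581, 763 and 690 TPM, a mean of 771 ± 201 (SD, n = 4) and rank 80 among all genes. Gad2, on chromosome 2 (22622205 to 22693874, plus strand), was at 707, 339, 499 and 384 TPM, a mean of 482 ± 165 (SD, n = 4) and rank 140. Foxp2, a forkhead factor on chromosome 6 (14901349 to 15441977, plus strand), was at 351, 94.2, 151 and 92.3 TPM, a mean of 172 ± 122 (SD, n = 4) and rank 481. For Foxp2 the NX pool lay 3.12-fold above the mean of the other pools, and without NX the mean was 112 ± 33.3 (SD, n = 3). Gad1, on chromosome 2 (70553072 to 70602014, plus strand), was at 187, 115, 163 and 184 TPM, rank 523 and the least spread of the 5 relative to its mean of 162 ± 33.5 (SD, n = 4). Tshz1, a zinc finger factor of the teashirt family on chromosome 18, was at 217, 85.4, 183 and 104 TPM, a mean of 147 ± 62.8 (SD, n = 4) and rank 603, and these transcripts come from cells with 1 GFP allele. Meis2 lay above Gad2 and Gad2 above Foxp2 in 4 of 4 pools. The ranges of these neighbours overlapped between pools, as did those of Foxp2, Gad1 and Tshz1. The GFP transcript itself, listed as EGFP, was at 268, 94.8, 255 and 132 TPM, so it followed the same order of pools as Tshz1.

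Transcription factors set the identity of a neuron by binding regulatory DNA. Of 589 factors in the lists, 231 were listed (39.2%, against 36.5% of all genes). Another 101 reached 1 TPM in some pools but not all, against 3878 of 32543 genes in all. At 0 in every pool were 143 factors, against 12972 of 32543 genes in all. Of the 589, 170 had a mean of 10 TPM or more, which is 28.9% against 24.4% of all genes. A mean of 100 TPM or more was found for 27, against 978 of 32543 genes in all. The listed share and the share at 10 TPM or more are near the background of all genes, which includes the accession-named rows.

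After Meis2, the highest factors were of the SOX, TALE and BCL11 families. Sox11, an HMG-box factor of newborn neurons, was at 804, 772, 979 and 389 TPM, rank 86 by its mean, and RM was the low pool. Sox11 lay below Meis2 in 2 of 4 pools, so no order of these leaders held in every pool. Pbx3, a TALE partner of MEIS proteins on DNA, was at 658, 189, 334 and 193 TPM, with NX 2.76-fold above the mean of the rest. Bcl11a, a zinc finger factor of many forebrain neurons, was at 412, 249, 342 and 217 TPM, and lay above Nfib in 4 of 4 pools, with means of 305 and 206 TPM. Nfib, a nuclear factor I protein of glial and neuronal differentiation, was at 102, 245, 279 and 197 TPM, the lowest pool being NX. Bcl11b, a relative of Bcl11a known from striatal projection neurons, was at 165, 146, 193 and 80.3 TPM. All 7 pairs of neighbours among the 8 highest factors had overlapping ranges, and 1 of the 7 pairs kept its order in all 4 pools.

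**Figure D1:**
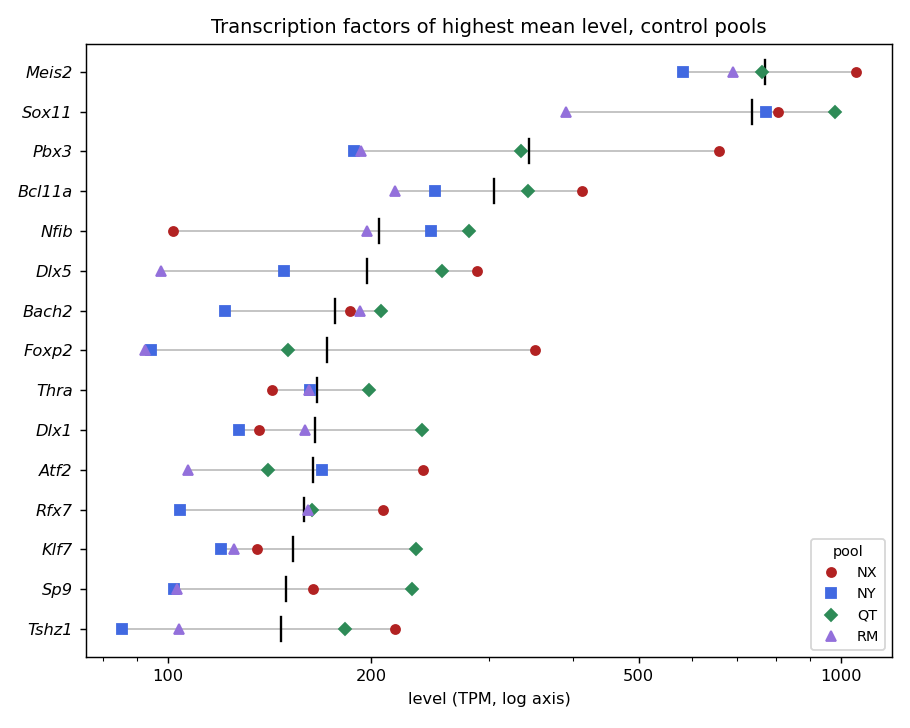
Level of 14 of the 16 transcription factors of highest mean and of Tshz1 in each control pool (TPM, log axis); 1 symbol is 1 pool, the black bar is the mean over 4 pools and the grey line the range. Meis2 and Sox11 lead, and most ranges overlap their neighbours'. In deposited TPM, NX is the highest pool for Meis2, Pbx3 and Foxp2 but the lowest for Nfib.

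Several factors of the ganglionic eminences were listed. DLX homeobox genes drive GABAergic fate, and 4 of the 6 were listed (66.7%, against 36.5% of all genes). Dlx5 was at 288, 149, 256 and 97.7 TPM, with NX and QT above NY and RM. Dlx1 was at 137, 127, 238 and 160 TPM, with QT the high pool. Dlx6 at 77.6, 31.9, 35.6 and 32.0 TPM and Dlx2 at 58.6, 43.4, 45.8 and 14.2 TPM were lower. Sp9, a zinc finger factor of striatal and interneuron precursors, was at 164, 102, 230 and 103 TPM, while its relative Sp8 was at 21.7, 10.2, 12.5 and 3.64 TPM. Six3, a homeobox factor of the lateral eminence, was at 140, 106, 208 and 74.5 TPM and made up 80.4% of the summed level of the 12 genes of its family and the EYA family. Opposite-strand transcripts overlap its exons, and the named kit does not mark the strand, so their fragments cannot be told apart. Pax6, a factor of neural progenitors and of the dorsal part of the lateral eminence, was at 61.0, 12.8, 50.1 and 24.0 TPM, which is 99.4% of the summed level of 9 PAX genes.

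Within some families 1 gene held most of the summed level. In others the leading gene held less: Meis2 held 42.8% among the TALE homeobox genes and Max 15.2% among the bHLH genes. Of 3 teashirt genes Tshz1 held 90.9% of the summed level: Tshz2 was at 5.13, 7.24, 19.9 and 17.3 TPM and Tshz3 at 1.40, 3.03, 3.32 and 1.36 TPM. Among the forkhead P genes, Foxp1 was at 109, 120, 124 and 80.6 TPM, a narrower range than that of Foxp2. Foxp2 lay above Foxp1 in 3 of 4 pools, at 3.21 times its level in NX and 0.784 times in NY, so no order of the pair held in every pool. Foxp4 was lower, at 57.5, 30.6, 44.8 and 29.4 TPM. Of 18 NKX and GSX homeobox genes, factors of early ventral patterning, 1 was listed (5.56%, against 36.5% of all genes). In every pool 12 of the 18 were at 0. Among the other homeobox genes, which include the HOX clusters of hindbrain and spinal cord, 62 of 88 were at 0 in every pool. Over all genes this held for 12972 of 32543. Isl1, of direct-pathway striatal neurons, was low at 0.870, 5.03, 1.87 and 5.29 TPM, and Ebf1, of the same neurons, was at 1.23 TPM in NX and at 9.04 to 17.3 TPM in the others, with NX the lowest pool for both. Etv1 was at 4.05, 18.1, 15.6 and 10.9 TPM and Zic1, which shares exon positions with the opposite-strand gene Zic4, at 1.89, 3.27, 4.87 and 1.83 TPM.

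The spread between pools was wide for some factors. A gene is called wide where its mean was 10 TPM or more and its highest pool was 4-fold or more above its lowest on log2(TPM + 1). Of 7945 genes at that level, 519 were wide (6.53%), and after TMM scaling, which adjusts the pools for composition, 423 of 7911 (5.35%). Among transcription factors 28 of 170 were wide (16.47%), and 28 of 168 after scaling. Without NX the counts were 6 of 170 factors (3.53%) and 206 of 7693 genes (2.68%), and without RM they were 27 of 176 factors and 258 of 8092 genes. NX therefore set most of the wide factors, while the wide genes as a whole rested on both NX and RM. NX was the lowest pool for 20 of the 28 factors and the highest for 7. After scaling NX was the lowest for 23 and the highest for 4. Over all genes the split depended on the scale: of the 519 wide genes NX was the highest pool for 264 and the lowest for 143, and of the 423 after scaling it was the highest for 88 and the lowest for 194.

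The factors lowest in NX included 6 from the pallial glutamatergic list and 3 from the list of interneurons of the medial and caudal ganglionic eminences. Neurod6, a bHLH factor of cortical excitatory neurons, was at 13.01, 88.2, 126 and 43.8 TPM, with NX the lowest pool. The Foxp2 level was 26.9 times that of Neurod6 in NX and 1.07, 1.195 and 2.11 times in NY, QT and RM. Tbr1, a T-box factor of pallial projection neurons, was at 4.73, 37.0, 37.0 and 27.7 TPM. Lhx6, a LIM factor of medial eminence interneurons, was at 4.62, 19.5, 26.4 and 21.8 TPM. Zeb2, which is active in interneurons and in glia, was at 25.4, 113, 144 and 128 TPM. NX lay below the other pools for each of these genes, which were taken from the wide factors lowest in NX. The pools are bulk samples, so fewer cells of a type and less RNA per cell cannot be told apart. NX was also the low pool for the summed progenitor, glial and microglial lists, and their part in these levels was not tested.

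Of the 7 wide factors highest in NX, 5 were on the list of 17 immediate early genes, which are transcribed soon after a cell is stimulated. The remaining ones were Pax6, which is on the progenitor list, and Sp8, which is on the interneuron list. Egr1, a zinc finger factor, was at 186, 27.5, 6.34 and 1.34 TPM. Egr3, of the same family, was at 105, 6.23, 13.3 and 4.40 TPM. The leucine zipper gene Fosb was at 85.2, 7.40, 3.15 and 0 TPM, and its relative Fos, which pairs with JUN proteins, at 64.0, 14.9, 8.25 and 0 TPM. The minimum of 10 TPM is on the mean with NX, so a factor high in NX alone can pass it through that pool. Without NX the means of Fosb and Fos were 3.52 and 7.73 TPM, under the minimum, and that of Egr1 was 11.7 TPM. RM, the library with the fewest counts, held 0 counts of Fos and Fosb, so their folds between pools are not given against it. Jun was at 26.1, 19.4, 11.2 and 4.69 TPM, a smaller range in the same order of pools.

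The sequences before the start sites of Fos and Fosb are shown because both genes had the same order of pools with 64.0 and 85.2 TPM in NX and 0 in RM. They are from the RefSeq promoter table of GRCm38.p6 and run 5′ to 3′ over the 250 bases up to the start site, at chr12:85473640-85473889 on the plus strand for Fos and at chr7:19310046-19310295 on the minus strand for Fosb. Capitals mark a core of the cyclic AMP response element, TGACG, wherever a search of both strands found it. They also mark the TATA box.
Fos: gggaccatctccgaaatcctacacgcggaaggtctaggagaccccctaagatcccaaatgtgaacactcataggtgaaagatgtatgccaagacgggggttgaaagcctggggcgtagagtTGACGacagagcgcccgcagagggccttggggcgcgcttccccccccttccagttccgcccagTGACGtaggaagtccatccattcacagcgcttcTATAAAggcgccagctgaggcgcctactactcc
Fosb: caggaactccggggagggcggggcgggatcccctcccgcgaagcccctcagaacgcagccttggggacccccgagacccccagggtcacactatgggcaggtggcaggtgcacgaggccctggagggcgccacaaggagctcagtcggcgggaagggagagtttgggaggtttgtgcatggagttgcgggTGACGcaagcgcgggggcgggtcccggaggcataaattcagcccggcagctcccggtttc
The Fos window held the core element at -129 to -125 and at -66 to -62 from the start site and a TATA box at -33 to -28. The Fosb window held the core element at -60 to -56 and no TATA box. Of 32851 promoter windows of the same length, 17.77% held the core element on either strand. The TATA box, searched on both strands as TATAAA, was in 12.37% of the windows. The full element, searched as TGACGTCA, which contains the core, was in 1.55% of windows and the CArG box in 1.47%, and neither Fos nor Fosb held those letters in this window. These matches describe the letters and not binding.

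**Figure D2:**
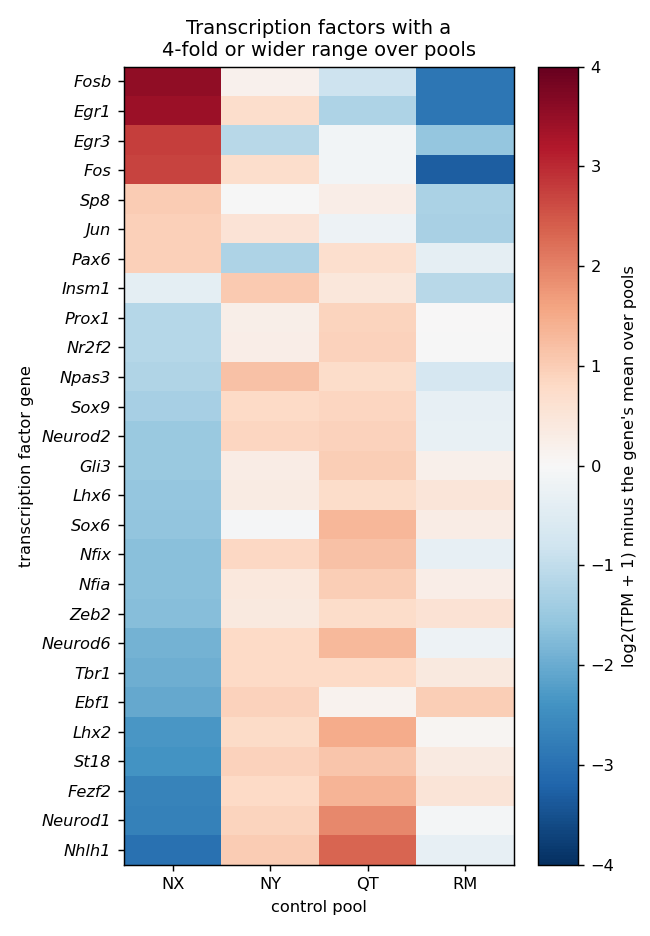
Level of 27 of the 28 wide transcription factors in each control pool as log2(TPM + 1) minus the gene's mean over pools (red above and blue below the mean), ordered by the value in NX. Fosb, Egr1, Egr3 and Fos are highest in NX and lowest or low in RM, while most others, such as Neurod6 and Lhx2 are lowest in NX.

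Other factors had a very small range. Mef2c, an activity-regulated MADS-box factor, was at 44.4, 35.4, 34.5 and 37.3 TPM, a mean of 37.9 ± 4.51 (SD, n = 4). Tead1, which acts with YAP proteins, was at 20.8, 20.6, 25.2 and 20.6 TPM, with QT the high pool.

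Receptors receive transmitters, guidance cues and growth factors. Of 453 receptors, 168 were listed (37.1%), and 58 were at 0 in every pool. Another 116 reached 1 TPM in some pools but not all, against 3878 of 32543 genes in all. With a mean of 10 TPM or more were 103 (22.7%), and 13 of these had 100 TPM or more, against 978 of 32543 genes in all. The listed share and the share at 10 TPM or more were near the background shares of 36.5% and 24.4%.

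Ionotropic glutamate receptors were led by AMPA and kainate subunits. Gria2, the subunit that makes AMPA receptors impermeable to calcium, was at 258, 207, 149 and 235 TPM, the highest receptor by mean (212 ± 47.2, SD, n = 4) and rank 358 among all genes. It lay above Gria1 in 4 of 4 pools, by 1.29, 3.02, 1.60 and 3.06 times. Gria1 was at 200, 68.4, 92.6 and 76.7 TPM, with NX far above the others. The kainate subunit Grik3 was at 157, 103, 184 and 81.7 TPM and held 67.5% of the summed level of 5 kainate subunits. NMDA subunits were lower: Grin2b, the juvenile regulatory subunit, was at 29.1, 35.6, 15.1 and 27.3 TPM, the obligatory subunit Grin1 at 19.2, 16.52, 9.36 and 11.6 TPM, and Grin2a, which rises after birth, at 0.890, 0.270, 0.450 and 2.78 TPM. The metabotropic receptor Grm5 was at 13.96, 22.8, 8.47 and 29.4 TPM.

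GABA and glycine receptors were also present. Of 19 GABA-A channel subunits 7 were listed (36.8%, near the 36.5% of all genes). Among the alpha subunits Gabra2 was at 6.46, 13.8, 14.03 and 21.9 TPM and Gabra3 at 15.6, 4.88, 5.89 and 9.22 TPM, so Gabra3 was the higher in NX and Gabra2 in the other pools. Gabbr1, a subunit of the metabotropic GABA-B receptor, was at 166, 134, 113 and 83.6 TPM and its partner Gabbr2 at 17.4, 5.40, 12.99 and 10.1 TPM, so the partners differed in level in every pool. Glra2, a fetal glycine receptor subunit, was at 28.0, 18.6, 10.99 and 14.5 TPM.

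Dopamine and opioid receptors, known from adult intercalated cells, were low to middling. Drd2, on chromosome 9 (49340627 to 49408177, plus strand), was at 29.4, 28.2, 45.6 and 21.7 TPM, and Drd1 was at 8.95, 4.56, 4.54 and 3.82 TPM. Drd2 lay above Drd1 in 4 of 4 pools, by 3.29, 6.18, 10.1 and 5.68 times, and their ranges did not overlap. Oprm1, the mu opioid receptor, was at 8.31, 7.82, 1.63 and 4.93 TPM from 16 to 106 counts, and its exons overlap those of the opposite-strand gene Ipcef1. Oprl1, the nociceptin receptor, was at 48.7, 23.8, 29.3 and 11.1 TPM, the highest of the 5 opioid receptor genes. The delta receptor Oprd1 stayed at or under 0.500 TPM in each pool.

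Of 72 other peptide receptors 8 were listed (11.1%, against 36.5% of all genes). Sstr2, a somatostatin receptor, was at 61.9, 38.4, 82.0 and 34.4 TPM and had the highest mean among them. Prokr2, a prokineticin receptor of migrating olfactory neurons, was at 48.8, 25.1, 30.8 and 23.6 TPM. The purine receptor P2ry1 was at 55.8, 14.3, 9.89 and 5.99 TPM, and the neurotensin receptor Ntsr1 at 24.9, 3.26, 6.66 and 5.73 TPM. In both genes the NX pool lay above all other pools, by 5.54 and 4.78 times their means. Among the adhesion G-protein coupled receptors, the latrophilins Adgrl1, Adgrl2 and Adgrl3 averaged 188, 153 and 136 TPM, and the 3 have opposite-strand transcripts over their exons. Adgrl2 was at 265, 80.9, 131 and 136 TPM, with NX the highest pool and a mean of 116 without it. Adgrl3 was at 250, 122, 79.2 and 94.1 TPM, also highest in NX, and its mean without NX was 98.5 TPM.

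Receptors for guidance cues and for reelin included 4 of the 8 highest of the class. Plxna2, a plexin that transduces semaphorins, was at 170, 168, 254 and 176 TPM. Epha4, an Eph receptor of repulsive axon and cell sorting, was at 208, 140, 264 and 118 TPM and held 43.7% of the summed level of 14 Eph receptors. Neo1, a netrin and RGM receptor, was at 170, 136, 206 and 140 TPM, more than the netrin receptor Dcc at 68.9, 48.6, 50.3 and 51.7 TPM. Robo2, a slit receptor, was at 137, 72.2, 93.8 and 84.5 TPM. Lrp8, a reelin receptor, was at 117, 120, 179 and 119 TPM, above its relative Vldlr at 63.2, 29.6, 33.9 and 29.7 TPM. The neuregulin receptor Erbb4 was at 111, 69.0, 53.8 and 59.5 TPM. By contrast Nrp1, a neuropilin of endothelial and many neuronal cells, was at 2.12, 28.2, 19.99 and 18.3 TPM, and NX lay below the other pools. Neighbours among the 8 highest receptors overlapped in range in 7 of 7 pairs, and 0 of the 7 pairs kept its order in all 4 pools.

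Of the 103 receptors at 10 TPM or more, 9 were wide (8.74%, against 6.53% of all genes), 7 of 102 after TMM scaling, 2 of 100 without NX, 4 of 102 without RM and 2 of 103 with log2(TPM + 5). The receptors of smallest range included Plxnc1, at 23.7, 23.8, 27.6 and 24.2 TPM, and Npr2, a natriuretic peptide receptor, at 14.3, 12.2, 12.1 and 12.3 TPM, where pools other than NX agreed closely.

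Ion channels carry the currents of excitability. Of 266 channel and channel-partner genes, 117 were listed (44.0%, against 36.5% of all genes), 33 were at 0 in every pool, and 60 had a mean of 10 TPM or more (22.6%, against 24.4%). None had 100 TPM or more, while 978 of 32543 genes in all did.

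Of 32 voltage-gated potassium channel genes of the Kv group, 13 were listed (40.6%, near the 36.5% of all genes). Kcnd2, a subunit of the transient A-current, was at 57.3, 25.0, 31.9 and 30.4 TPM. Kcnk10 and Kcnk2, leak channels of the TREK group, were among the narrowest, at 25.3, 21.6, 21.1 and 26.1 TPM and at 13.5, 12.1, 15.1 and 14.4 TPM. Kcnj3, of the G-protein gated inward rectifiers, was at 27.5, 10, 20.7 and 13.7 TPM, while Kcnj6, its partner in many neurons, did not pass 1.66 TPM and had 0 counts in NX. Kcnmb4, an auxiliary subunit of the BK channel, was wide at 48.5, 12.5, 21 and 60.3 TPM, with antisense transcripts over its exons.

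Among sodium channels the fetal alpha subunit Scn3a led, at 59.3, 43.6, 50.1 and 58.5 TPM, with Scn8a, Scn1a and Scn2a1 averaging 17.2, 10.1 and 9.43 TPM. Scn3a ranged above all 3 in every pool. Fgf14, a regulator of sodium channels at the axon initial segment, was at 91.3, 45.8, 57.8 and 38.3 TPM. Calcium channel genes were led by the beta subunit Cacnb3 at 82.7, 63.9, 120 and 77.3 TPM and by Cacng7, which is also a partner of AMPA receptors, at 64.4, 44.6, 123 and 43.9 TPM. The pore subunit of N-type channels, Cacna1b, was narrower, at 38.9, 31.1, 30.5 and 39.8 TPM. Ttyh3, a tweety protein listed with the chloride channels, was at 57.7, 63.7, 134 and 69.2 TPM, and QT was the high pool. Its relative Ttyh1, also active in glia, was at 3.18, 19.0, 15.1 and 20.5 TPM, where NX was low. Neighbours among the 8 highest channel genes overlapped in 7 of 7 pairs, and 0 kept their order in all pools. Wide were 5 of 60 (8.33%, against 6.53% of all genes), also 5 of 60 after scaling, 2 of 57 without NX, 2 of 59 without RM and 1 of 60 with log2(TPM + 5).

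**Figure D3:**
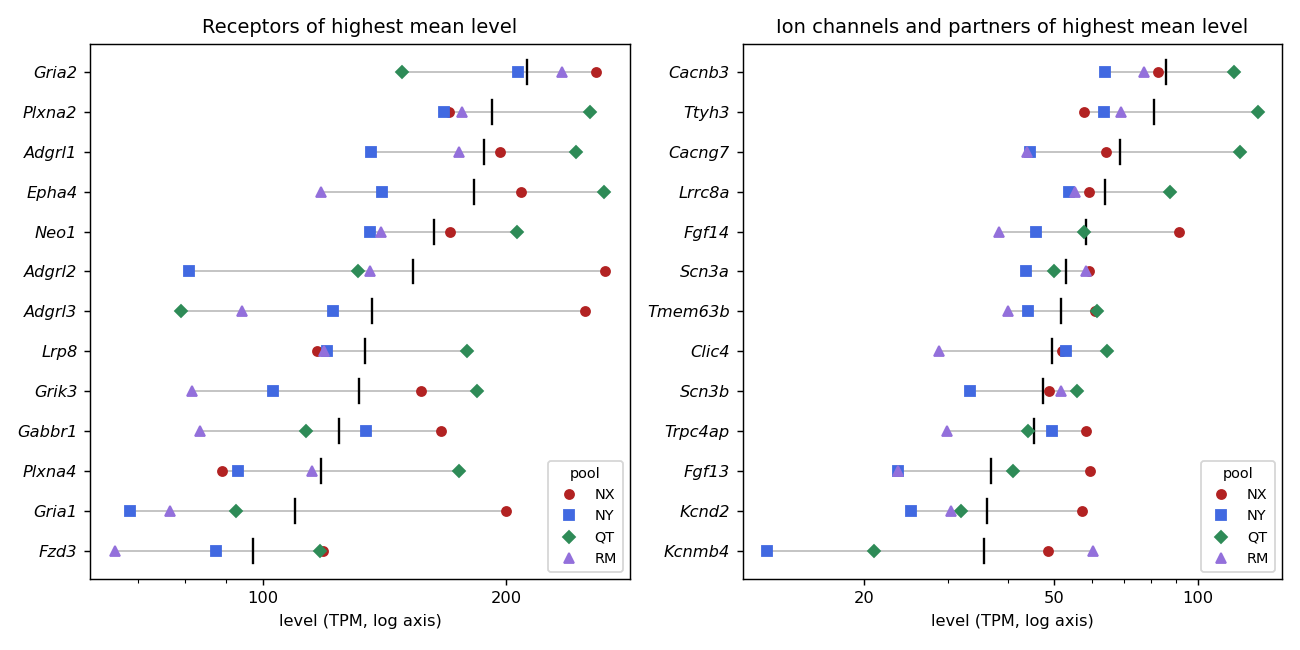
Level of 13 of the 14 receptors (left) and 13 of the 14 channel genes (right) of highest mean in each control pool (TPM, log axis); 1 symbol is 1 pool, the black bar the mean over 4 pools and the grey line the range. Neighbours overlap throughout; NX is the highest pool for Gria1 and Adgrl2 and QT for Plxna2, Lrp8 and Ttyh3.

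Adhesion molecules hold cells and synapses together. Of 281 adhesion genes, 199 were listed (70.8%, against 36.5% of all genes), 8 were at 0 in every pool, and 122 had a mean of 10 TPM or more (43.4%, against 24.4%). Every member was listed in several small families: 9 IgLON and CADM genes, 10 receptor phosphatases, 6 L1 and NCAM genes and 4 teneurins. Of the leucine-rich repeat synapse organisers 32 of 35 were listed, and of the clustered protocadherins 50 of 57. Of the integrins 5 of 26 were listed, and Itgb1, the common beta subunit, was at 48.7, 28.9, 43.6 and 21.3 TPM. Clustered protocadherins share exons between genes of a cluster, so their levels are uncertain where fragments fall in the shared part. Pcdhgb7, with 13.1, 14.01, 14.6 and 12.6 TPM, is one of these.

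The leading adhesion gene was Cd24a, a surface glycoprotein of newborn neurons on chromosome 10 (43578284 to 43584265, plus strand). It was at 2038, 1292, 1788 and 1013 TPM, rank 29 among all genes, and its lowest pool lay above the highest pool of every other member. Basp1, a membrane-bound growth cone protein in the list but not an adhesion molecule itself, came next at 568, 395, 591 and 307 TPM. Ncan, the proteoglycan neurocan, was at 375, 354, 470 and 231 TPM and Ncam1 at 278, 216, 352 and 274 TPM. Ptprs, a receptor phosphatase that binds synapse organisers, was at 249, 243, 335 and 212 TPM. The teneurins Tenm2 and Tenm3 were at 49.4, 41.6, 54.6 and 60.4 TPM and at 74.5, 37.9, 44.6 and 43.8 TPM.

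Neurexins and neuroligins, which pair across synapses, were all 6 listed. Nrxn3 was at 365, 255, 256 and 358 TPM and held 62.4% of their summed level. Its relative Nrxn2 was at 27.6, 20.5, 32.0 and 23.02 TPM, below Nrxn3 in 4 of 4 pools, and the ranges did not overlap. The neuroligin Nlgn3 was at 59.9, 48.6, 64.2 and 40.01 TPM. Cdh2, N-cadherin, was at 117, 92.4, 146 and 96.5 TPM and led 36 cadherins. Pcdh1 led 12 non-clustered protocadherins, of which 10 were listed (83.3%, against 36.5% of all genes), at 78.0, 62.1, 113 and 74.8 TPM.

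Adhesion genes had the smallest wide share of the classes on the deposited scale, 6 of 122 (4.92%, against 6.53%), but not after TMM scaling, where 10 of 121 were wide (8.26%, against 5.35%). Without NX 0 of 122 were wide. Cntn2, a contactin of axons, was at 3.90, 21.4, 34.7 and 26.1 TPM, and Tnc, a tenascin of radial glia, at 0.880, 35.5, 19.7 and 29.7 TPM; NX was low for both. Bsg, a partner of transporters, was narrow at 106, 104, 108 and 96.6 TPM, and Gpm6b at 157, 171, 179 and 172 TPM. In 6 of 7 neighbouring pairs among the 8 highest, the ranges overlapped, the exception being Cd24a above Basp1.

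Transmitter genes showed a GABAergic set. Of 184 genes for transmitter synthesis, transport, peptides and release, 72 were listed (39.1%, against 36.5%), 33 were at 0 in every pool, and 56 had a mean of 10 TPM or more (30.4%). Besides Gad1 and Gad2, of which Gad2 was at 3.78, 2.95, 3.07 and 2.08 times the level of Gad1, the vesicular GABA transporter Slc32a1 was at 54.9, 42.7, 57.03 and 29.6 TPM. The chloride importer Slc12a2 was at 55.3, 26.0, 32.0 and 22 TPM, and the exporter Slc12a5 at 7.71, 4.06, 3.27 and 8.69 TPM. The importer lay above the exporter in 4 of 4 pools, by 7.17, 6.41, 9.77 and 2.53 times, and their ranges did not overlap.

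Genes of other transmitters were low. The vesicular glutamate transporter Slc17a7 was at 0, 0.860, 1.90 and 2.63 TPM and Slc17a6 at 0.640, 6.59, 8.19 and 8.55 TPM, the lowest pool being NX in each case. Slc17a8 did not pass 1.12 TPM in any pool. Th, the enzyme of dopamine synthesis, was at or under 0.550 TPM, and Chat, of acetylcholine synthesis, and the transporters Slc6a3 and Slc6a4 were listed at 0 in each pool. Slc18a2, the vesicular monoamine transporter, was an exception at 14.5, 12.7, 16.7 and 14.4 TPM, a narrow range, but an antisense transcript lies over its exons.

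Neuropeptides varied most. Sst, somatostatin, on chromosome 16 (23889573 to 23890958, minus strand), was at 37.9, 47.0, 108 and 278 TPM. Penk, the precursor of enkephalins, was at 105, 28.3, 17.7 and 31.4 TPM, with an opposite-strand transcript over its exons. Sst was at 0.360, 1.66, 6.07 and 8.84 times the level of Penk, so the order turned between NX and the rest. Npy was at 7.19, 23.7, 18.3 and 53.3 TPM from 19 to 68 counts, and Cck at 1.07, 8.48, 14.8 and 34.5 TPM from 4 to 53 counts. Tac1, of direct-pathway striatal neurons, was at 0, 5.47, 0.810 and 16.8 TPM. Pdyn and Pnoc, precursors of dynorphin and nociceptin, did not pass 1.45 and 1.26 TPM in any pool, and Vip was at 0 in each.

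Of 27 vesicle and release genes at 10 TPM or more 1 was wide (3.70%, against 6.53% of all genes). It was Unc13d, a priming factor of secretion, at 97.9, 74.4, 23.03 and 18.7 TPM. After TMM scaling 0 genes of this family were wide. Snap25, of the fusion complex, was at 253, 154, 214 and 225 TPM, Syt6, a synaptotagmin, at 284, 109, 175 and 101 TPM, and Vamp2 at 171, 168, 193 and 77.7 TPM. Rims2, of the active zone, was narrow at 36.5, 28.6, 28.2 and 29.8 TPM. Wide were 7 of 56 transmitter genes (12.5%, against 6.53%), 6 of 56 after scaling, 1 of 56 without NX and 4 of 57 (7.02%) without RM. Of the 7, 4 were in the family of other neuropeptide precursors: Sst, Npy, Cck and Nxph1, a secreted ligand of neurexins.

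**Figure D4:**
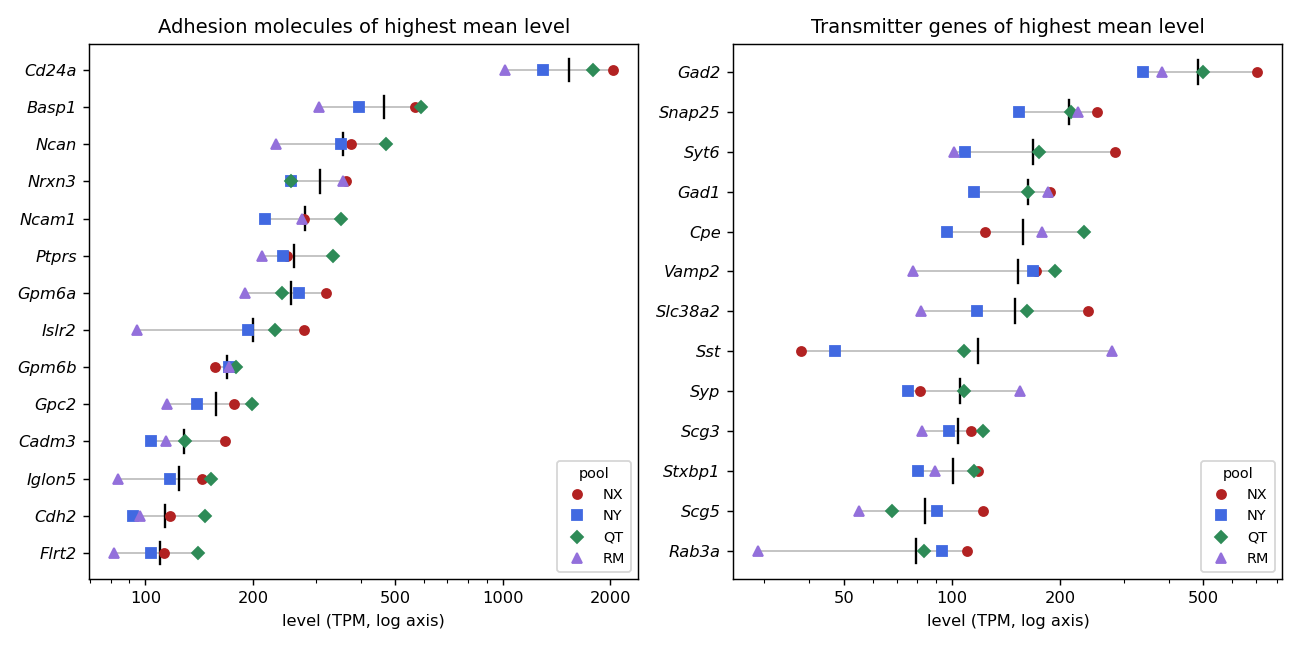
Level of the 14 adhesion genes (left) and 13 of the 14 transmitter genes (right) of highest mean in each control pool (TPM, log axis); 1 symbol is 1 pool, the black bar the mean over 4 pools and the grey line the range. Cd24a and Gad2 stand above the next gene, and Sst has a wide range, from 37.9 TPM in NX to 278 TPM in RM.

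Markers of cells that a GFP gate in this tissue could include were summed in each pool. Pan-neuronal genes summed to 2576, 2135, 2904 and 1693 TPM, and the 5 intercalated cell markers to 2513, 1214, 1758 and 1455 TPM. Striatal projection neuron genes summed to 536, 410, 461 and 305 TPM, and genes of medial and caudal eminence interneurons to 234, 258, 414 and 525 TPM, with Pvalb and Vip at 0 in each pool. Radial glia and progenitor genes summed to 244, 1731, 1169 and 1509 TPM, and Fabp7, a lipid-binding protein of radial glia, was at 79.5, 1475, 746 and 1301 TPM, which is most of the sum in NY, QT and RM but not in NX. Oligodendrocyte-lineage genes summed to 10.2, 36.6, 30.1 and 23.1 TPM and astrocyte genes to 16.8, 45.3, 39.9 and 41.7 TPM, with Gfap at 0 in each pool. Vascular genes summed to 1.77, 37.1, 5.34 and 10.7 TPM, with Cldn5 and Pecam1 at 0 in NX. Erythroid genes summed to 79.7, 1298, 3.55 and 51.6 TPM, so NY stood out for blood, its Hbb-bs at 688 TPM. Cell cycle genes summed to 299, 515, 629 and 343 TPM. In deposited TPM, NX held the least in the lists of glia, microglia and vessels and the most in the markers. After TMM scaling the marker sums were 2137.5, 1276, 1658 and 1725 TPM. Leaving out the accession-named rows turns 100 TPM into 154 in NX and 265 in RM. The marker sums of NX and RM would then be nearly equal, so the marker lead of NX over RM depends on those rows. The part of the cell type lists in the spread between pools was not tested. Y-linked Eif2s3y was at 0, 16.7, 0 and 26.2 TPM and Xist, expressed from the inactive X, at 718, 195, 687 and 449 TPM, so Y-linked RNA marked NY and RM but not NX or QT for this gene.

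**Figure D5:**
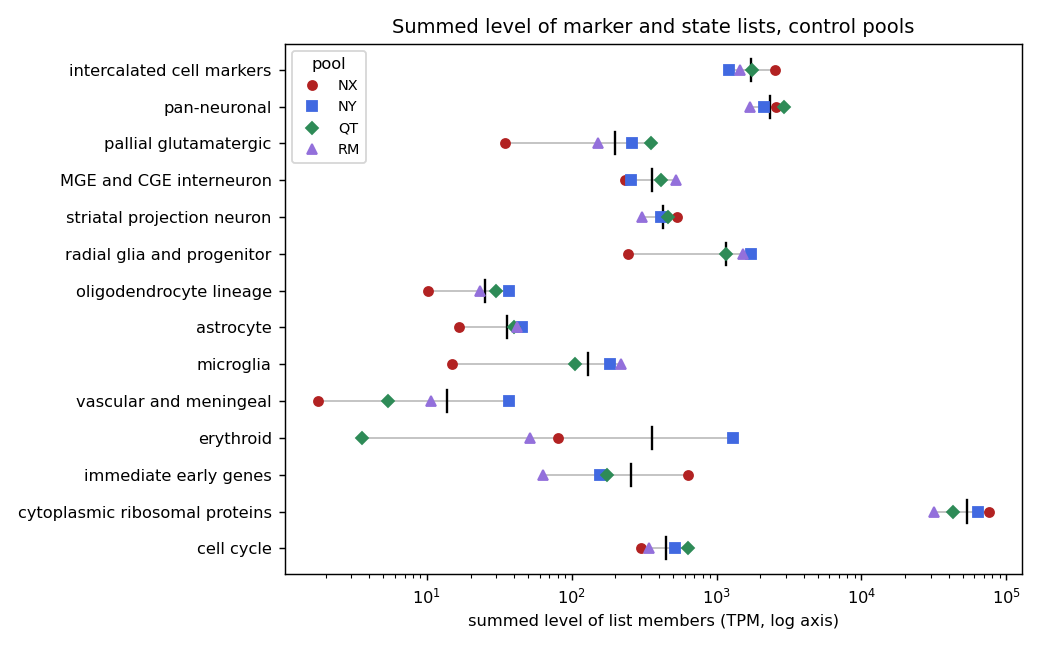
Summed level of each list of cell type and state genes in each control pool (TPM, log axis); 1 symbol is 1 pool, the black bar is the mean over 4 pools and the grey line the range. In deposited TPM, NX lies lowest for pallial, progenitor, glial and microglial lists and highest for intercalated cell markers and immediate early genes. NY is highest for erythroid genes.

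The common coefficient of biological variation between the 4 pools, fitted over 12340 genes, was 0.369. It is a description of how far pools of 1 genotype lie apart, with their differences in composition included.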

How the data were processed

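RNA was sequenced from 4 control pools of sorted cells. Trimmomatic 0.33, RSEM 1.2.22, Bowtie2 (version not given in the sources used here) and mm10 are named by the submitters' processing notes, with no annotation release. Per the file headers, the deposited values are RSEM expected counts, in which a fragment matching several places is split between them, and TPM per gene. Per the labels' protocols, amplification used a NuGEN Ovation kit and libraries were Nextera XT. The kit as named does not mark the strand, and fragments carry no molecular identifiers, so floors cover counting error only. The 8 control columns of the deposited matrices differed from the sample files by at most 0, and 0 sample columns were left unmapped.

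Levels are the deposited TPM. Expected counts were rounded and their common dispersion was fitted with edgeR 4.0.16 in R 4.3.3 (1 group, filterByExpr, TMM factors) and was tested on simulated data. TMM factors of the TPM values were 1.18, 0.951, 1.06 and 0.844. Genes were assigned to 5 classes in 79 families by symbol, and 15 lists served for other cells and states. The members and lists were chosen with earlier results of these data known. Genes named are the 5 markers, the 8 highest, the leading member of each family and the 3 widest and 3 narrowest of each class, leading genes of the other lists, and genes fixed by name; other named genes were chosen after their values were seen. No genotypes were compared. Some genes that this rule names are not reported or drawn here. GENCODE (GRCm38) gave positions and placed 147 of 157 genes. Of these, 54 overlap exons of another gene, 45 of them on the opposite strand. The text marks only some of these overlaps: Bcl11a, Nrxn3, Ncam1 and Syt6, for example, also have them on the opposite strand. The promoter letters are from RefSeq and matched both genes searched. Alternatives changed the level minimum, pseudocount, scaling, filter and the pools left out.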

Additional observations from a re-analysis of the deposited data

Results flagged for a closer look

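Of 149 named genes, 20 (13.4%) had 1 pool set apart from the other 3 by a gap, relative to the range over pools, above Dixon's 95% critical value for 4 samples, which chance gives in about 1 in 20 genes. Some of these genes were named for their wide or narrow range over pools, so the share cannot be read against chance. The pool set apart was NX for 7 genes, NY for 2, QT for 9 and RM for 2. In NX, the immediate early genes Fosb and Egr1 were at 85.2 and 186 TPM, against 0 to 7.40 and 1.34 to 27.5 TPM in the other pools. The receptors P2ry1, Ntsr1, Npr2 and Drd1 were at 55.8, 24.9, 14.3 and 8.95 TPM there, and the enkephalin precursor Penk was at 105 TPM, all above the other pools.

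In QT, the receptors Plxna2, Lrp8, Plxnc1 and Bmpr2 were at 254, 179, 27.6 and 117 TPM. Also high in QT were the channel genes Ttyh3 at 133.8 and Lrrc8a at 87.4 TPM, the factors Klf7 at 233 and Tead1 at 25.2 TPM, and the replication clamp Pcna at 115 TPM. Plxnc1, Tead1 and Npr2 stand apart by small absolute differences because their other pools lay close together. In RM, the channel gene Kcnh7 was high at 18.7 TPM, and Pcdhgc3, which shares exons with its cluster, was low at 38.3 TPM against 77.7 to 79.8 TPM. In NY, the pericyte gene Rgs5 was at 14.4 TPM and the globin gene Hbb-bs at 688 TPM.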

How the results depend on the processing

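Counts of listed genes stayed within 1.5 times of those reported under each level minimum, count minimum, scaling and pool left out, except that a minimum of 5 TPM left 104 receptors, 69 channel genes and 126 adhesion genes. The coefficient of variation was 0.542 without a filter, 0.329 at a mean of 10 TPM or more, and 0.344 to 0.404 with 1 pool left out. The 519 wide genes became 277 with log2(TPM + 5), 840 at a mean of 5 TPM or more, 119 at 50 TPM or more, and 206 (without NX) to 452 with 1 pool left out; without RM they were 258. The 28 wide factors became 15 with log2(TPM + 5), 4 at 50 TPM or more, and 6 (without NX) to 27 with 1 pool left out. Factor counts under these settings were added after seeing the data. Fewer genes are tested at the higher minimum; otherwise the cause was not tested. The median correlation between pools was 0.962, and 0.953 with log2(TPM + 0.1) or 0.900 at a mean of 1 TPM or more. Means of all 157 named genes stayed within 1 SD under TMM scaling. The TMM factors lie on both sides of 1 and move a mean over 4 pools little, so this shows little of stability. A median, or a mean with 1 of 4 pools left out, cannot lie more than 1 SD away and shows nothing of stability. The means were higher by more than 1 SD for 139 of 146 without ribosomal protein genes and the 20 highest genes. Without accession-named rows, a setting added after seeing the data, this held for 140 of 149. All of the 8 highest of each class were kept under TMM scaling, where means move little, and 6 to 8 with 1 pool left out. No paired analysis was possible because 1 genotype was used and no groups were compared. In RM, the shallowest pool, a count of 0 allows up to 0.519 CPM.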

Other observations

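Tuba1a, a tubulin of young neurons, was at 6563, 4389, 7134 and 3320 TPM. Dcx, a microtubule protein of migrating neurons, was at 857, 668, 978 and 462 TPM, and Tubb3 was at 718, 618, 855 and 281 TPM. RM was the low pool for each in deposited TPM, of which accession-named rows took 62.2% in RM. Without those rows NY would be the low pool for Tuba1a. Rn45s, the ribosomal RNA precursor, was at 8295, 23686, 6663 and 3199 TPM, with NY the high pool. Rbfox3, a marker of mature neurons, was at 29.0, 14.9, 33.5 and 20.9 TPM.

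Csf1r, the microglial growth factor receptor, was at 0.0400, 9.85, 9.52 and 16.7 TPM, from 1 count in NX. Mki67, a proliferation gene, was at 4.11, 33.4, 65.4 and 33.7 TPM. Rarb, a retinoic acid receptor of striatal neurons, was at 24.6, 4.41, 4.89 and 3.26 TPM, highest in NX, as was Foxp2.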
